A study of Mus musculus with 67 samples.

Results

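Regulatory T cells (Tregs) of the brain without its hypothalamus, called rest brain, were compared between male C57Bl/6J mice on a high-fat high-sugar (HFHS) diet and on standard diet (SD). The libraries were taken by their labels for tissue, strain, cell type and diet, which gave 8 of the 67 samples of the series, 4 on HFHS diet and 4 on SD. The series profiles T cells sorted from brains of mice on either diet and, in a pilot experiment, from *ob*/*ob* mice, and asks how T cells of the brain respond to a hypercaloric diet. Its second experiment holds 59 libraries of Tregs and activated conventional T cells, by tissue, strain and diet, and includes the 8 described here. The Tregs come from Foxp3GFP reporter animals, and the HFHS diet was started at 6 weeks of age. The length of the diet and the Treg gate of this experiment are not given in the sources used here, nor is the age at which the SD mice were taken.

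Each library is a pool of several mice, so p-values measure only the spread between these pools. The methods give 5 mice per pool for the conventional T cells of the same experiment, and the number range in the label of HFHS library 2 spans 4. No pool holds mice of both diets.

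Tregs are CD4+ T cells that restrain other immune cells, and their lineage depends on the transcription factor Foxp3. They act through inhibitory receptors such as CTLA-4, through suppressive cytokines and by taking up interleukin-2 with a high-affinity receptor. In non-lymphoid tissue, Tregs can divide locally and turn on effector and tissue-repair programs, and a small population of them resides in the healthy brain.

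Estimated counts summed to 16312691, 18926472, 15791794 and 17434939 in HFHS libraries 1 to 4, and to 17220533, 20263458, 16709558 and 24985589 in SD libraries 1 to 4. At this depth, 8481, 9623, 8508 and 9166 genes had more than 10 counts in HFHS libraries 1 to 4, against 8773, 6217, 5438 and 6817 in SD libraries 1 to 4. SD libraries 2 to 4 thus stood apart, with fewer genes detected than SD library 1 and every HFHS library although their totals lay within or above the range of the other libraries. Of the 8606 genes tested, 1989, 2574 and 1418 were at 0 in SD libraries 2 to 4, against 406 in SD library 1 and 153 to 537 in the HFHS libraries. The activated conventional T cells sorted from the same pools had 10348 to 11147 genes with more than 10 counts in 7 libraries, SD pools included. The main results are therefore also given without SD libraries 2 to 4, which leaves SD library 1 alone on that diet, assumed to vary like the HFHS libraries. The part of gene detection in the diet differences was not tested, and fewer cells of a type and less RNA per cell cannot be told apart in such pools.

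*Foxp3* was present in all 8 libraries, at 384, 385, 305 and 308 TMM-scaled CPM in HFHS libraries 1 to 4 and at 430, 363, 231 and 469 CPM in SD libraries 1 to 4. The diet groups overlapped, with the lowest and the highest value both on SD. Mean *Foxp3* was 345 ± 45.1 CPM on HFHS diet and 373 ± 104 on SD (standard deviation, n = 4 each), a log2 fold change of −0.11 ± 0.28 (SE). It was −0.32 without SD libraries 2 to 4 and −0.51 with the number of genes detected as a covariate. The difference in mean log2(CPM + 1) was −0.07 (exact two-sided permutation test over 70 assignments, p = 0.8), and its sign turned to 0.01 on the TPM scale. On that scale, which corrects for gene length, *Foxp3* averaged 122 TPM on HFHS diet and 125 on SD, against 770 and 896 TPM for *Ctla4*.

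*Il2ra*, the interleukin-2 receptor alpha chain (CD25), was measured at 359, 134, 209 and 265 CPM on HFHS diet and 363, 294, 440 and 399 on SD. HFHS libraries 2 to 4 lay below every SD library, and HFHS library 1 lay among them (exact two-sided permutation p = 0.0571). *Ikzf2*, which encodes the transcription factor Helios, had 617, 336, 639 and 312 CPM on HFHS diet and 414, 471, 1095 and 359 on SD, with overlapping groups. The inhibitory receptor gene *Ctla4* reached 1259, 1041, 848 and 1016 CPM on HFHS diet and 1000, 1030, 1329 and 1792 on SD, again with overlap. The log2 fold changes of *Ikzf2* and *Ctla4*, −0.30 and −0.31, turned to 0.19 and 0.05 without SD libraries 2 to 4. *Cd4*, the coreceptor of helper T cells, was at 115, 130, 277 and 241 CPM on HFHS diet and at 109, 109, 238 and 113 on SD. A value above 200 occurred in HFHS libraries 3 and 4 and in SD library 3. The markers thus fit the label in both diets, with *Foxp3*, *Il2ra*, *Ikzf2*, *Ctla4* and *Cd4* well above the floor of 3 counts in every library.

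Between the diets, the summed transcripts of dividing cells, and among them those of the G2 and M phases, lay higher in HFHS libraries 2, 3 and 4 than in any SD library. HFHS library 1 lay in the SD range, and S phase genes were above it clearly in HFHS libraries 2 and 4 only. The lymphotoxin gene *Ltb* and the inhibitory receptor gene *Tigit* were lower in every HFHS library, and the other Treg effector genes mostly overlapped. No gene passed an adjusted p of 0.05 in edgeR's quasi-likelihood test with Benjamini-Hochberg adjustment (0 of 8606 genes, 0%, smallest adjusted p = 0.59). At an unadjusted p under 0.05, edgeR gave 228 genes, of which 163 (1.89% of those tested) were higher on HFHS diet and 65 (0.755%) lower. DESeq2 called 88 genes, 78 of them higher, and limma-voom called 0, with 409 at an unadjusted p under 0.05. On simulated data of this comparison DESeq2 also called many unchanged genes and edgeR missed most changed ones. The DESeq2 calls for this comparison are thus not used as support, and 0 edgeR calls do not show equal levels. The simulation took its spread from edgeR and did not include the low gene detection of SD libraries 2 to 4, so it does not settle which calls are right. Leaving out HFHS library 1 gave 3 edgeR calls, and without SD libraries 2 to 4 there were 0, with 588 of 7871 genes at an unadjusted p under 0.05. The log2 fold change was positive for 4583 of the genes tested (53.3%), with a median of 0.07. All differences below therefore fail the correction over all genes in edgeR, and values are given as measured. Genes named because their diet groups do not overlap were chosen by that separation, so their unadjusted p is a description. Genes near 0 on 1 diet that passed the filter through the other diet alone had to differ, and no p of the diet difference in Tregs is given for them.

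Proliferation was read from 97 cell cycle genes, 43 of S phase, which serve DNA replication, and 54 of the G2 and M phases, which build the spindle and separate the chromosomes. More than 3 counts were found for 43, 91, 81 and 88 of the 97 genes in HFHS libraries 1 to 4 and for 46, 27, 30 and 36 in SD libraries 1 to 4. HFHS libraries 2 to 4 thus detected nearly the whole list, and HFHS library 1 fewer members than SD library 1. Their summed level was 4955, 13656, 12017 and 12087 CPM in HFHS libraries 1 to 4 and 4978, 4731, 5266 and 4797 CPM in SD libraries 1 to 4. The groups overlapped only through HFHS library 1, which lay inside the range of the SD libraries. The summed astrocyte and CD8 T cell markers, given below, were also higher in HFHS libraries 2 to 4 than in every SD library.

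**Figure D1:**
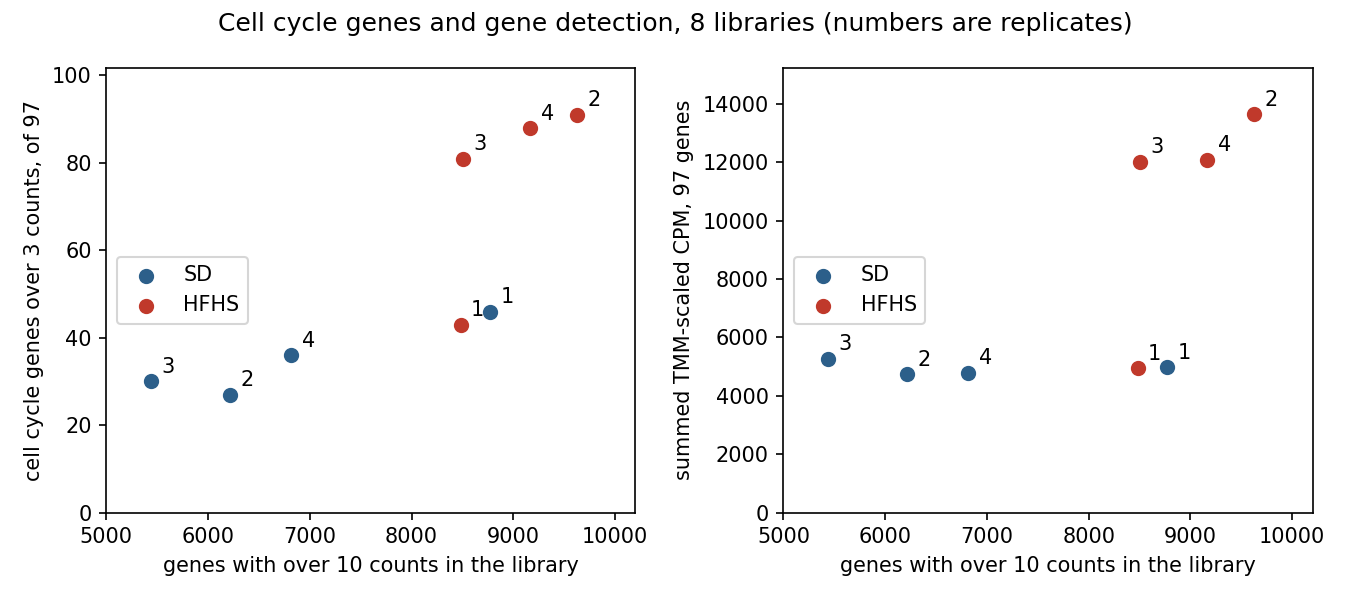
For each of the 8 libraries, numbered by replicate, the number of the 97 cell cycle genes with more than 3 counts (left) and their summed TMM-scaled CPM (right) are plotted against the number of genes with more than 10 counts. HFHS libraries 2 to 4 sit between 12017 and 13656 CPM, and HFHS library 1 sits at 4955 beside SD library 1 at 4978, with a close number of genes detected (8481 and 8773).

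The phases differed between the HFHS libraries. S phase genes summed to 1836, 4621, 1761 and 3877 CPM on HFHS diet and 1401, 1310, 1804 and 1742 on SD, so that HFHS libraries 2 and 4 were high and HFHS libraries 1 and 3 lay close to the SD libraries. G2 and M phase genes summed to 3118, 9035, 10256 and 8210 CPM on HFHS diet and 3576, 3420, 3461 and 3056 on SD. Here HFHS library 3 was the highest, and HFHS library 1 lay among the SD libraries. HFHS library 3 therefore combined a high G2 and M sum with an S phase sum at the SD level.

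Of the 97 genes, 51 passed the filter of more than 10 counts in at least 4 libraries, 2 of them through HFHS libraries alone, and 46 did not. Log2 fold changes were positive for 45 of the 51 and negative for 6, with a median of 1.0 (0.07 over all genes tested), which was also 1.0 with genes at 0 in a whole group set to their bound. The S phase genes had a median of 0.90 (24 of 27 positive) and the G2 and M phase genes one of 1.5 (21 of 24 positive). Without SD libraries 2 to 4 their order turned, with 1.35 for S phase (22 of 24 positive) and 1.05 for G2 and M (19 of 22). No member passed the edgeR test (0 of 51), 4 had an unadjusted p under 0.05, all higher on HFHS diet, and 3 were higher in every HFHS library than in every SD library, against 3.61% of all genes tested. *Nusap1* and *Ubr7*, the 2 that passed through HFHS libraries alone, are in both counts, which leave 2 and 1 members without them and are no support. Among the 15 members with a mean of at least 100 CPM, the median was only 0.16 (11 positive), beside −0.01 over the 2163 tested genes of that level. The median was 1.33 without SD libraries 2 to 4 and 0.83 with the number of genes detected as a covariate. With limma-voom it was 2.65, where the median of all genes was 0.70. Without HFHS library 2, 3 or 4 it was 1.02, 1.17 and 1.01 over 52, 52 and 53 members. Leaving out any other library let many more members pass the filter, so those medians cover other genes. They were 2.87 over 81 members without HFHS library 1, 3.30 over 79 without SD library 1, 2.30 over 81 without SD library 2, 2.27 over 81 without SD library 3 and 2.77 over 79 without SD library 4.

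*Nusap1*, on chromosome 2 and encoding a protein that bundles spindle microtubules, was measured at 18.1, 143, 123 and 50.4 CPM in HFHS libraries 1 to 4 and at 0 in all SD libraries. Its groups did not overlap, and HFHS library 1 again had the lowest of the HFHS values. *Nusap1* was at least 539-fold higher on HFHS diet, with SD libraries set to a floor of 3 counts each. *Cdc20*, the activator of the anaphase-promoting complex, had 46.5, 84.1, 254 and 251 CPM on HFHS diet, 14.1 in SD library 1 and 0 in SD libraries 2 to 4. Every HFHS library was above every SD library, with means of 159 ± 109 and 3.52 ± 7.03 CPM (edgeR log2 fold change 5.50 ± 2.36 SE, unadjusted p = 0.0424, and 3.49 without SD libraries 2 to 4). *Ubr7*, which ubiquitinates histone H2B, stood at 39.5, 35.9, 45.6 and 35.5 CPM on HFHS diet, with 1 count in SD library 1 and 0 in the others. Its HFHS values were the most even of the 3, and the ratio of summed counts was 3079 (95% counting interval 552 to 121678). Fitted log2 fold changes of genes with so few SD counts depend on the prior count and bound nothing.

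Further members, chosen after their values were seen and all with their highest value on HFHS diet, overlapped between the diets through HFHS library 1. The 6 tested members with a negative log2 fold change are not among them. *Hmgb2*, a chromatin protein abundant in dividing cells, was at 641, 2482, 1914 and 1587 CPM on HFHS diet and 567, 550, 739 and 318 on SD. HFHS library 1 fell between SD libraries 1 and 3, and the other HFHS libraries were above all SD libraries, with means of 1656 ± 771 and 543 ± 173 CPM. The proliferation marker *Mki67* was at 0.122, 95.6, 6.96 and 109 CPM on HFHS diet, 6.62 in SD library 1 and 0 in the other SD libraries. HFHS library 3 barely exceeded SD library 1 for this gene. The mitotic cyclin gene *Ccnb2* was at 0, 232, 220 and 328 CPM on HFHS diet and at 0 in all SD libraries, and *Cdk1*, the kinase that drives mitosis, at 0, 83, 66.5 and 46 CPM against 0 throughout. *Rrm2*, a subunit of ribonucleotide reductase, was at 0, 285, 0 and 242 CPM on HFHS diet, with 1 count in SD library 2 and 0 in the other SD libraries. For these 3 genes HFHS library 1 was at 0 like the SD libraries, and for *Rrm2* HFHS library 3 was too. All 3 had counts in too few libraries to pass the filter and were not tested.

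Regulators of the cell cycle that are also used by resting cells shared this arrangement in part. Of 23 such genes, 16, 21, 20 and 20 had more than 3 counts in HFHS libraries 1 to 4 and 15, 17, 15 and 15 in SD libraries 1 to 4. Their mean log2(CPM + 1) was 4.22, 5.17, 5.43 and 5.52 on HFHS diet and 4.09, 4.33, 3.68 and 4.23 on SD. By both measures HFHS libraries 2 to 4 lay above every SD library and HFHS library 1 lay in their range. Lists outside the cell cycle also had a higher mean log2(CPM + 1) in every HFHS library, among them Treg identity, mTOR pathway and cholesterol synthesis genes. For suppressive molecules and effector Treg transcription factors this mean overlapped. The higher mean is thus not particular to cell cycle regulators. The summed level of the 23 regulators overlapped, at 4154, 3414, 4724 and 3734 CPM on HFHS diet and 3948, 5426, 4033 and 3510 on SD. The 16 members tested had 7 positive and 9 negative log2 fold changes (median −0.04, and 0.04 without SD libraries 2 to 4), none without overlap. The antiproliferative gene *Btg1*, the most abundant by TPM, had 1725, 1264, 1513 and 1111 CPM on HFHS diet and 1444, 2747, 2421 and 1165 on SD, with overlap between the diets.

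**Figure D2:**
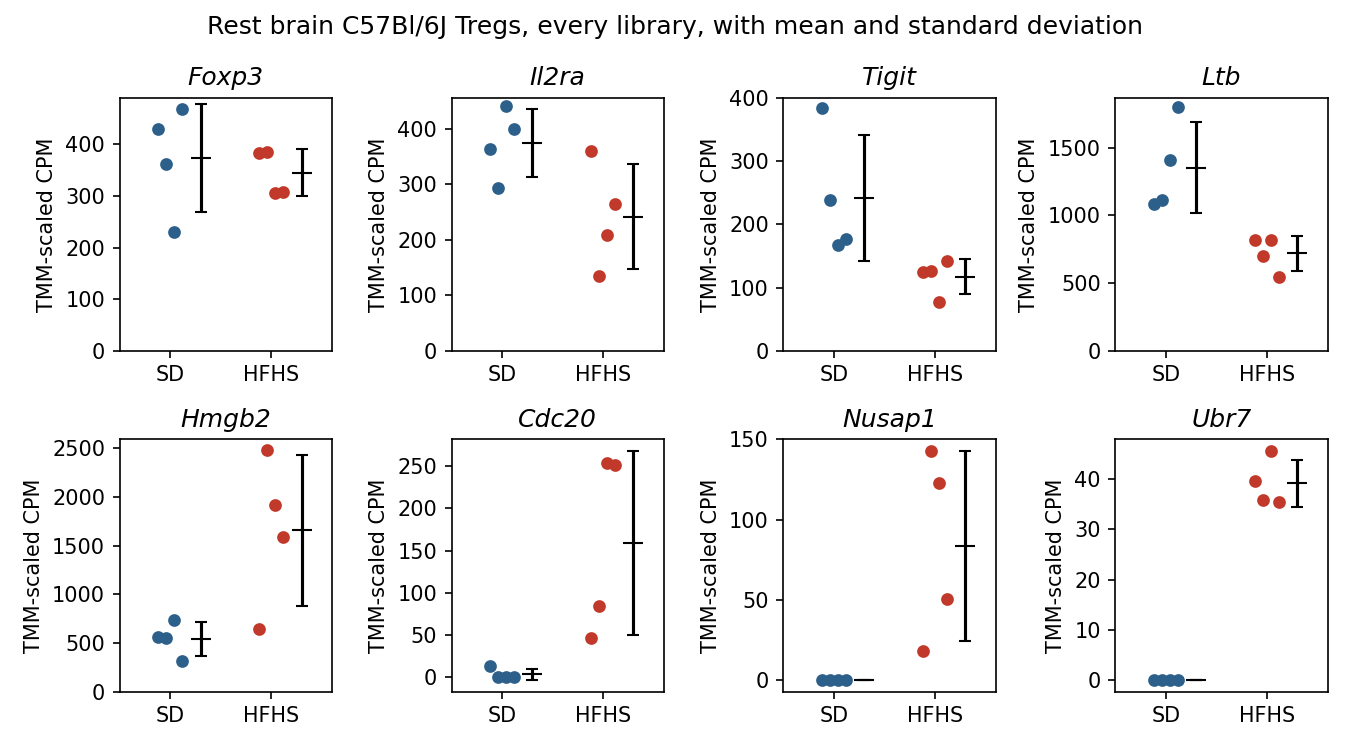
TMM-scaled CPM of 8 genes in each SD (blue) and HFHS (red) library, with the group mean and standard deviation as a bar (n = 4 each). *Tigit* and *Ltb* are lower in every HFHS library and *Cdc20*, *Nusap1* and *Ubr7* higher, while *Foxp3*, *Il2ra* and *Hmgb2* overlap between the diets.

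Treg identity genes were balanced between the diets by sign, with 12 of 25 tested members positive and 13 negative (median −0.02, 0.06 without SD libraries 2 to 4). Their mean log2(CPM + 1) was higher in every HFHS library, at 7.59, 7.71, 7.77 and 7.87 against 7.49, 7.05, 6.53 and 7.26 on SD. At a mean of at least 100 CPM, 6 of 17 were positive (median −0.16). No member of the list separated the diets completely. *Nrp1*, encoding the coreceptor neuropilin-1, came closest, at 391, 322, 357 and 268 CPM on HFHS diet and 297, 150, 141 and 112 on SD. SD library 1 was above HFHS library 4, and the other SD libraries were below all HFHS libraries. Its log2 fold change of 0.93 ± 0.37 SE (edgeR unadjusted p = 0.0291, adjusted p = 1) was 0.16 without SD libraries 2 to 4. *Cd3g*, a CD3 chain of the T cell receptor complex and the most abundant member by TPM, had 2348, 1984, 1740 and 1906 CPM on HFHS diet and 2624, 2199, 2252 and 1832 on SD, with overlap.

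Among 20 suppressive molecules, 17 were tested, 11 with a positive and 6 with a negative log2 fold change (median 0.27). That median was 0.01 without SD libraries 2 to 4 and −0.11 with the number of genes detected as a covariate. *Tigit*, an inhibitory receptor of effector Tregs, was the member whose groups did not overlap, against 1.07% of all genes tested that were lower in every HFHS library. It was measured at 125, 126, 77 and 142 CPM in HFHS libraries 1 to 4 and at 385, 238, 168 and 177 CPM in SD libraries 1 to 4. Every HFHS library lay below every SD library, the nearest being HFHS library 4 and SD library 3. Mean *Tigit* was 117 ± 28.1 CPM on HFHS diet and 242 ± 100 on SD, a fold of 0.486 (edgeR log2 fold change −1.04 ± 0.41 SE, unadjusted p = 0.0293). Without SD libraries 2 to 4 its log2 fold change was −1.72.

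Other suppressive genes, given here after their values were seen, overlapped between the diets. The galectin gene *Lgals1*, the most abundant by TPM, was at 312, 1112, 1105 and 1307 CPM on HFHS diet and 933, 238, 330 and 719 on SD, where HFHS library 1 was low and the other HFHS libraries were above all SD libraries. The cytokine gene *Il10* had 52.5, 53.6, 0.379 and 203 CPM on HFHS diet and 80.8, 36.8, 0 and 35.7 on SD. Libraries of both diets were thus near 0 and above 50 for *Il10*. *Gzmb*, encoding the cytotoxic protease granzyme B, was at 0.0611, 52.3, 0 and 648 CPM on HFHS diet and 77.3, 0, 120 and 0 on SD, so that a large part of its HFHS level came from library 4.

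Effector Treg transcription factors had 9 positive and 15 negative log2 fold changes among 24 tested of 28 (median −0.15), and none separated the diets. Without SD libraries 2 to 4 their median turned to 0.09, with 11 of 22 positive. *Id2*, which opposes E proteins, had the smallest p of this list and was at 508, 466, 247 and 494 CPM on HFHS diet and 1185, 539, 555 and 459 on SD. HFHS library 3 was the lowest and SD library 1 the highest, with overlap through SD library 4 (edgeR unadjusted p = 0.0885). *Batf*, a factor needed for tissue Tregs, was measured at 91.2, 163, 118 and 127 CPM on HFHS diet and 182, 136, 169 and 178 on SD, where HFHS library 2 lay among the SD libraries.

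Of 25 tissue-repair genes, 17 were tested, and 12 of the 17 had a negative log2 fold change (median −0.45, −0.59 without SD libraries 2 to 4), with 0 called and none without overlap. The growth factor gene *Areg*, named after its values were seen, was at 24.9, 31.1, 53.1 and 32.6 CPM on HFHS diet and 148, 184, 0 and 42.5 on SD. SD libraries 1 and 2 were high, SD library 3 was at 0, and the diets overlapped. The chemokine receptor gene *Cxcr6* was at 0, 31, 14.2 and 0.0579 CPM on HFHS diet and at 472, 177, 0 and 0.121 on SD. Its SD level came from SD libraries 1 and 2, and the other SD libraries were as low as the HFHS libraries. Chemokine receptors as a group had 4 positive and 8 negative values among 12 tested of 18 (median −0.27, and 0.02 with 5 of 10 positive without SD libraries 2 to 4). Their most abundant member by TPM, *Cxcr3*, had 562, 532, 166 and 422 CPM on HFHS diet and 829, 314, 480 and 249 on SD, with overlap.

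TNF receptor and costimulatory genes had 7 positive and 10 negative log2 fold changes among 17 tested of 20 (median −0.16, and −0.39 without SD libraries 2 to 4). *Tnfrsf18*, encoding the Treg receptor GITR, was at 1778, 1020, 1356 and 1405 CPM on HFHS diet and 1884, 1145, 1445 and 1886 on SD, and *Traf1*, an adaptor of this receptor family, at 287, 236, 194 and 93.9 CPM against 314, 154, 403 and 338. Both genes overlapped between the diets.

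*Ltb*, which encodes the lymphotoxin beta chain, had the smallest p among the cytokine and cytokine receptor genes. It was measured at 816, 699, 819 and 546 CPM in HFHS libraries 1 to 4 and at 1086, 1114, 1413 and 1806 CPM in SD libraries 1 to 4. All HFHS libraries lay below all SD libraries, and *Ltb* was abundant in each of the 8, with group means of 1034 TPM on HFHS diet and 1830 TPM on SD. The means of 720 ± 129 and 1355 ± 335 CPM gave a fold of 0.531 (edgeR log2 fold change −0.91 ± 0.22 SE, unadjusted p = 0.0022, adjusted p = 0.59). The log2 fold change of *Ltb* was −0.60 without SD libraries 2 to 4. The list as a whole had 10 positive and 11 negative values among 21 tested of 33 (median −0.03, and −0.04 without SD libraries 2 to 4), and *Il2*, *Il4*, *Il6*, *Il13*, *Il17a* and *Csf2*, cytokines of effector T cells, were at 0 in all 8 libraries.

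Homing and residency genes were mixed. *Itgb7*, an integrin chain of gut-homing and tissue T cells, was at 885, 933, 1167 and 942 CPM on HFHS diet and 855, 798, 454 and 699 on SD. The HFHS libraries were all higher, but HFHS library 1 and SD library 1 were close, and the log2 fold change of 0.48 ± 0.22 SE (edgeR unadjusted p = 0.0565) was 0.19 without SD libraries 2 to 4. *Itga6*, a laminin-binding integrin chain, was at 43.6, 76.8, 25.6 and 80.8 CPM on HFHS diet and 0.988, 2.79, 0.0573 and 20.2 on SD, also without overlap, with SD library 4 nearest to the HFHS libraries. Residency and adhesion genes had 6 positive and 10 negative values among 16 tested of 17 (median −0.22), which turned to 0.27 with 9 of 15 positive without SD libraries 2 to 4. Naive and egress genes had 7 and 7 among 14 tested of 16 (median 0.10, and 0.23 without SD libraries 2 to 4).

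Genes of T cell activation gave no separation of the diets. Of 34 T cell receptor signal and immediate early genes, 29 were tested, with 12 positive and 17 negative log2 fold changes (median −0.16, and −0.01 with 13 of 29 positive without SD libraries 2 to 4). The immediate early gene *Fos* was at 3678, 4781, 3948 and 2577 CPM on HFHS diet and 4023, 7167, 6668 and 2182 on SD, and *Jund*, a partner of *Fos* in AP-1, at 382, 331, 281 and 515 CPM against 433, 682, 690 and 450. HFHS library 4 was low for *Fos* and high for *Jund*, and both genes overlapped. Th1 and cytotoxic genes had 9 positive and 5 negative values among 14 tested of 23 (median 0.30). Their median was 0.15 without SD libraries 2 to 4, with 6 of 11 positive, and at a mean of at least 100 CPM it turned to −0.15, with 3 of 7 positive. The chemokine gene *Ccl5* was at 148, 236, 12.8 and 99.4 CPM on HFHS diet and 348, 148, 272 and 379 on SD, with overlap through SD library 2.

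Interferon-stimulated genes had 30 positive and 17 negative log2 fold changes among 47 tested of 49 (median 0.18, and 0.21 without SD libraries 2 to 4). *Irf9*, a subunit of the factor that transmits type I interferon signals, was at 322, 227, 322 and 262 CPM on HFHS diet and 174, 0, 0.802 and 66.4 on SD. It was the 1 member of 47 without overlap, beside 3.61% of all genes tested, its HFHS values were even, and its SD values ran from 0 to 174. The log2 fold change of *Irf9*, 2.23 ± 1.62 SE (edgeR unadjusted p = 0.199), was 0.69 without SD libraries 2 to 4.

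Heat shock genes had 9 positive and 2 negative values among 11 tested of 14 (median 0.52, and 0.51 without SD libraries 2 to 4), none without overlap. The chaperone gene *Hspa8* was at 2445, 4155, 2468 and 4800 CPM on HFHS diet and 3198, 2953, 1730 and 3542 on SD, and its partner *Dnajb1* at 183, 279, 174 and 396 CPM against 160, 204, 142 and 149. HFHS libraries 2 and 4 were the highest for both genes.

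Metabolic genes were described because the diet differs in fat and sugar. Glycolysis genes had 12 positive and 5 negative log2 fold changes among 17 tested of 18 (median 0.33), but the median was −0.13 without SD libraries 2 to 4. *Gapdh* was at 1950, 2368, 1815 and 2364 CPM on HFHS diet and 2159, 1726, 1174 and 1695 on SD, with overlap through SD library 1. The lactate exporter gene *Slc16a3* was at 29.1, 56.1, 0 and 107 CPM on HFHS diet, 2.38 in SD library 1 and 0 in the other SD libraries, where HFHS library 3 was at 0 as well. Genes of fatty acid uptake and oxidation had 10 positive and 4 negative values among 14 tested of 20 (median 0.15, and 0.10 without SD libraries 2 to 4), and *Hadhb*, a subunit of the mitochondrial trifunctional protein, was at 365, 311, 456 and 256 CPM against 249, 261, 7.68 and 105. For *Hadhb* the overlap rested on HFHS library 4 and SD library 2.

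Cholesterol and fatty acid synthesis genes were split, with 9 positive and 11 negative values among 20 tested of 26 (median −0.10). The median turned to 0.42 without SD libraries 2 to 4, with 11 of 16 positive. *Dhcr7*, the enzyme of the last step of cholesterol synthesis, was at 21.2, 38.3, 3.67 and 29.9 CPM on HFHS diet and 85.3, 86.2, 111 and 106 on SD. All HFHS libraries lay below all SD libraries, by a fold of 0.239 (edgeR log2 fold change −2.06 ± 0.90 SE, unadjusted p = 0.0448, and −1.88 without SD libraries 2 to 4). *Idi1*, an isomerase early in the same pathway, was at 34.9, 44.2, 98 and 212 CPM on HFHS diet and at 0, 0, 0.229 and 0.0809 on SD. For *Idi1* the HFHS libraries were higher, opposite to *Dhcr7*, and the gene passed the filter through HFHS libraries alone. *Mbtps1*, the protease that releases the sterol-sensing SREBP factors and outside this list, was at 28.9, 56, 11.8 and 61.5 CPM on HFHS diet and 192, 198, 326 and 297 on SD. It was lower in every HFHS library, by a fold of 0.156 (edgeR log2 fold change −2.68 ± 0.59 SE, unadjusted p = 0.00108, and −2.29 without SD libraries 2 to 4).

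In the mTOR pathway, 9 of 18 tested genes were positive and 9 negative (median 0.02, also without SD libraries 2 to 4). *Mtor*, the kinase itself, was at 1.95, 8.78, 46.9 and 8.28 CPM on HFHS diet and 0.0581, 0, 0 and 0.728 on SD, with no overlap but low levels outside HFHS library 3 (edgeR unadjusted p = 0.029). Apoptosis genes had 12 positive and 8 negative values among 20 tested (median 0.14, and 0.03 without SD libraries 2 to 4), and the pore-forming *Bak1* was higher in every HFHS library at 2.08, 0.582, 5.94 and 0.926 CPM against 0.349, 0, 0 and 0.121, having passed the filter through HFHS libraries alone. Leptin and insulin receptor genes had 3 positive and 2 negative values among 5 tested of 7 (median 0.24), which turned to 1 positive of 5 and −0.46 without SD libraries 2 to 4. Their most abundant member by TPM, *Leprotl1*, had 621, 388, 363 and 378 CPM on HFHS diet and 596, 177, 306 and 404 on SD. Of 13 genes that the study names for Tregs, which is no independent evidence of a direction, 12 were tested, 6 with a positive and 6 with a negative value (median −0.01, and 0.04 without SD libraries 2 to 4). *Mtor* was the 1 of these 12, and the 1 of the 18 mTOR pathway genes, without overlap. At a mean of at least 100 CPM, the medians turned to −0.35 for the mTOR pathway, −0.21 for apoptosis genes and −0.01 for naive and egress genes. Outside the cell cycle genes, every list had at most 1 member without overlap in a direction, beside 3.61% of all genes tested that were higher and 1.07% that were lower.

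**Figure D3:**
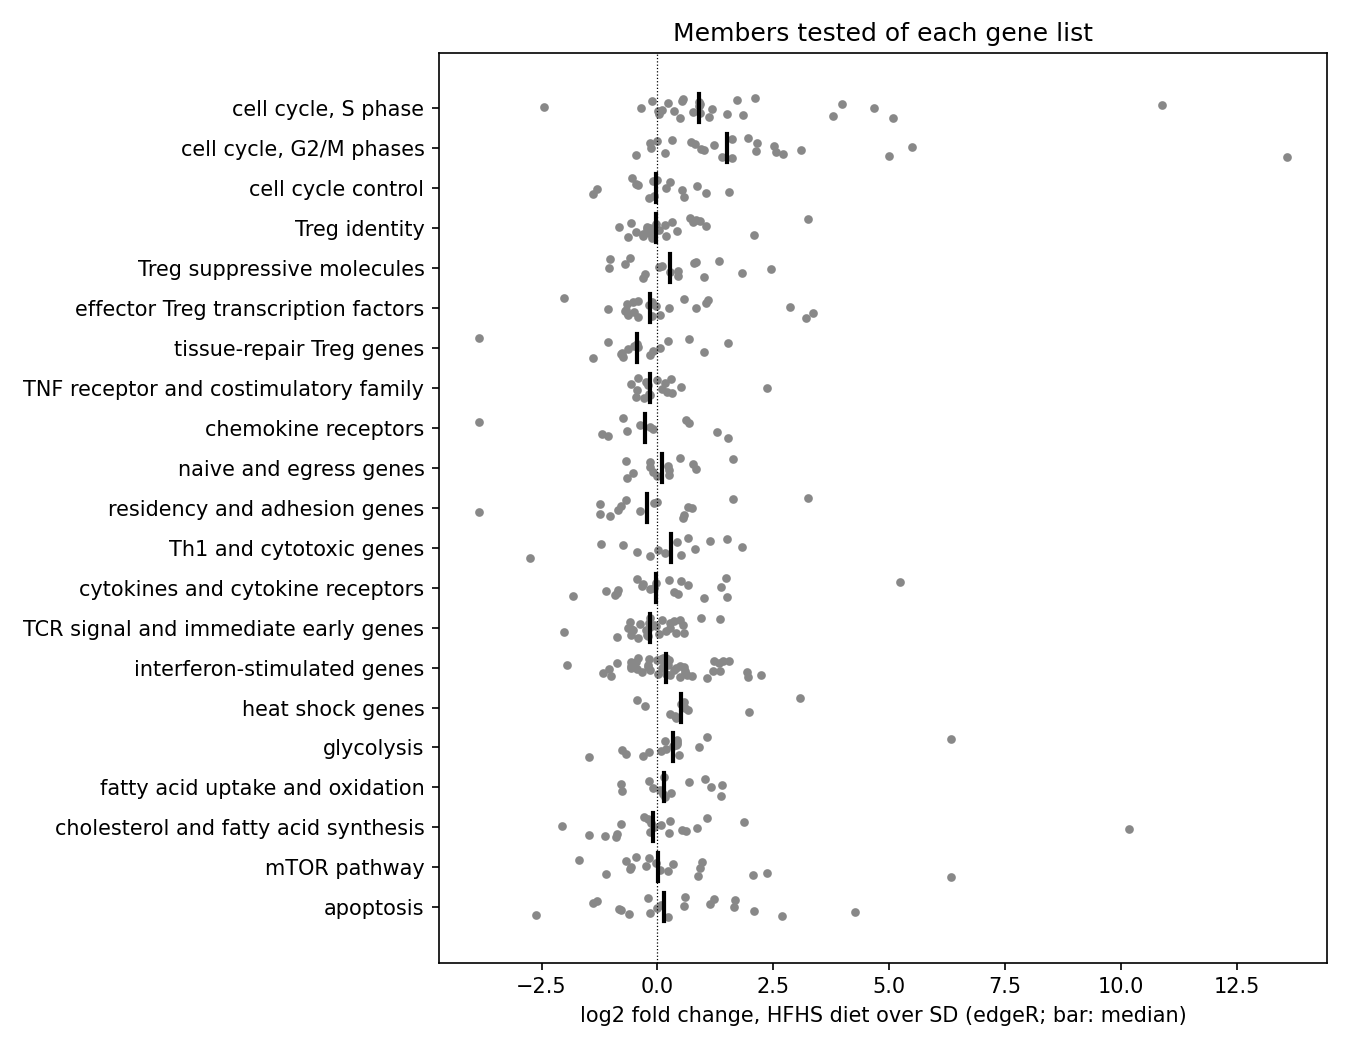
Fitted log2 fold changes, HFHS diet over SD, of the tested members of 21 gene lists (points), with the median of each list as a bar and 0 as a dotted line. The S phase and the G2 and M phase lists have medians of 0.90 and 1.5, the tissue-repair list −0.45, and values above about 6 belong to genes with few or no counts on SD and are no bounds.

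Across all genes tested, 311 were higher in every HFHS library than in every SD library and 92 were lower. The genes that were higher had a median mean level of 24.1 CPM, and for 122 of them at least 3 SD libraries had 3 counts or fewer. SD exceeded 3 counts in every library for 67 of the 311 genes, whereas HFHS diet did so for 77 of the 92 genes that were lower. At a mean of at least 100 CPM, 46 genes were higher without overlap (2.13% of 2163) and 39 lower (1.8%). The excess of higher over lower genes was thus mostly at lower levels. The median ratio between the nearest libraries of the diets was 1.54 for the genes that were higher and 1.17 for those that were lower. With 1 library left out, fewer libraries have to be separated and more genes pass the filter, and what each adds was not tested. The number higher reached 938 without SD library 1, 618 without SD library 4, 604 without HFHS library 1, 558 without HFHS library 3, 547 without SD library 2 and 520 without SD library 3. The number lower reached 260 without SD library 1, 216 without SD library 4, 213 without SD library 3, 209 without SD library 2, 170 without HFHS library 3, 151 without HFHS library 2 and 148 without HFHS library 1. Without SD libraries 2 to 4, when every HFHS library has only SD library 1 to pass, 1621 genes were higher and 1583 lower.

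Among genes of at least 20 CPM on average, the largest fitted log2 fold changes of the genes that were higher included those of *Nusap1*, *Prc1*, *Ascc2*, *Ermard*, *Rmdn3*, *Dhrs4*, *Tnpo1*, *Idi1* and *Cep85*. *Prc1*, which crosslinks the microtubules of the central spindle during cytokinesis, was at 32, 83.4, 52.9 and 70.8 CPM on HFHS diet and at 0 in all SD libraries, at least 386-fold higher. *Ascc2*, a subunit of a complex in the repair of alkylated DNA, was at 85.6, 69.8, 57.9 and 17 CPM on HFHS diet and at 0 on SD, at least 372-fold higher. For *Prc1* the lowest HFHS value was in library 1, and for *Ascc2* in library 4. *Ermard*, an endoplasmic reticulum membrane protein, was at 77, 14.1, 54.1 and 49 CPM on HFHS diet and at 0 on SD, at least 313-fold higher.

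The centrosomal gene *Cep85* was at 67.8, 76.5, 68.6 and 27.8 CPM on HFHS diet, 0.404 in SD library 4 and 0 in the other SD libraries. *Rmdn3*, a tether between mitochondria and the endoplasmic reticulum, was at 81.5, 58.7, 26.2 and 34.1 CPM on HFHS diet, with 1 count in SD library 1. SD library 1 was at or near 0 for all of these genes, which were chosen by their separation. Of all 311 genes that were higher, it had 3 counts or fewer for 88. The ratio of summed counts was 3990 for *Rmdn3* (95% counting interval 716 to 157651). For the nuclear import receptor gene *Tnpo1*, at 55.5, 56.1, 35 and 26.8 CPM on HFHS diet, it was 1728 (478 to 14274). For the dehydrogenase gene *Dhrs4*, at 42.3, 49.4, 97.6 and 3.53 CPM, it was 1869 (517 to 15439). Both had 2 counts on SD, in library 4, and such intervals cover counting error only.

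Among the genes that were lower, the largest fitted differences belonged to *Nomo1*, *Btaf1*, *Cxcl10*, *Mbtps1*, *Zbtb7b*, *Tysnd1*, *Wdr46*, *Pot1a*, *Alkbh4* and *Slc10a3*. *Nomo1*, an endoplasmic reticulum protein, was at 0.244, 0, 0 and 0.231 CPM on HFHS diet and 32.4, 81.2, 29.3 and 56.6 on SD. It was near absent from all HFHS libraries and passed the filter through SD libraries alone. *Btaf1*, which removes the TATA-binding protein from DNA, was at 10.5, 13.8, 19.5 and 2.2 CPM on HFHS diet and 36.2, 90.7, 223 and 238 on SD, a log2 fold change of −3.67 that was −1.66 without SD libraries 2 to 4. SD library 1 was the lowest of the SD libraries for this gene. *Zbtb7b*, encoding the CD4 lineage factor ThPOK, was at 8.31, 3.92, 1.26 and 29.3 CPM on HFHS diet and 35.8, 49.5, 116 and 58.9 on SD, where HFHS library 4 came close to SD library 1. The interferon-induced chemokine gene *Cxcl10* was at 0, 33.1, 14.8 and 21.6 CPM on HFHS diet and 44.5, 52.9, 85.5 and 276 on SD, with a large part of its SD level in library 4. Without SD libraries 2 to 4, the log2 fold change of *Zbtb7b* was −1.76 instead of −2.61, and that of *Cxcl10* −1.36 instead of −2.72.

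The remaining genes of this group were also lower in every HFHS library. The telomere-binding gene *Pot1a* was at 0, 24.2, 59.6 and 6.66 CPM on HFHS diet and 64.8, 125, 85.6 and 174 on SD. *Alkbh4*, a demethylase of the AlkB family, was at 22, 30.1, 25.9 and 0 CPM on HFHS diet and 46.8, 138, 83.6 and 112 on SD. *Pot1a* and *Alkbh4* were each at 0 in 1 HFHS library and above 40 in every SD library. *Wdr46*, which serves ribosome assembly, was at 6.17, 17.4, 0 and 17.4 CPM against 20, 35.5, 76.1 and 77.8, the peroxisomal protease gene *Tysnd1* at 0, 7.3, 12.6 and 8.68 CPM against 17.2, 38.7, 71.5 and 21.1, and the solute carrier gene *Slc10a3* at 42.6, 31.5, 0 and 0 CPM against 52.2, 71.3, 119 and 98.3. For each of these 5 genes the edgeR unadjusted p was above 0.1. Without SD libraries 2 to 4, the log2 fold changes were −1.52 instead of −2.31 for *Pot1a*, −1.27 instead of −2.28 for *Alkbh4*, −0.98 instead of −2.36 for *Wdr46* and −1.27 instead of −2.37 for *Tysnd1*.

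Markers of other cells were read for each library as the summed level of a fixed list. The marker said to lead a list is its most abundant member by mean TPM, which need not make up most of the sum in CPM. All 6 neutrophil markers, led by *S100a8*, were at 0 throughout, and neuronal (10 markers, led by *Snap25*), NK cell (5, led by *Klra8*) and fibroblast or pericyte markers (7, led by *Acta2*) summed to at most 1.22 CPM in any library. The 8 oligodendrocyte markers summed to 429, 359, 293 and 407 CPM on HFHS diet and 169, 390, 2.81 and 175 on SD, led by *Cnp*, with *Mog*, *Mag* and *Olig1* at 0. SD library 2 lay among the HFHS libraries, and SD library 3 was near 0. The defining microglial genes *P2ry12* and *Csf1r* were at 0 in all 8 libraries. SD library 3 had 62.9 CPM of *C1qb*, 105 of *C1qc* and 43.3 of *Aif1*, genes of microglia and macrophages that were at or near 0 in the other libraries.

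The 10 macrophage or monocyte markers summed to 70.4, 71.3, 116 and 261 CPM on HFHS diet and 71.8, 0, 115 and 0.202 on SD, led by the chemokine receptor gene *Ccr2*, which Tregs also express, with *Lyz2* and *Itgam* at 0. The 7 endothelial markers summed to 117, 36.9, 379 and 101 CPM against 54.7, 113, 229 and 181, led by *Ly6c1*, with *Kdr* and *Cdh5* at 0. *Ly6c1* itself was at 9.96, 8.68, 258 and 74 CPM on HFHS diet and 8.54, 28.6, 118 and 69.3 on SD. Other members thus made up most of the endothelial sum in HFHS libraries 1 and 2 and SD libraries 1, 2 and 4. The macrophage or monocyte sums and the endothelial sums overlapped between the diets. The 7 astrocyte markers summed to 0, 26.9, 39.1 and 44 CPM on HFHS diet and 15.6, 0, 1.78 and 0.0809 on SD, led by *Aldoc*, with *Gja1* and *S100b* at 0. *Aldoc* was thus high in HFHS libraries 2 to 4 and absent from HFHS library 1, as many cell cycle genes were, and its part in those results was not tested.

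The 6 B cell markers summed to 9.28, 58.5, 16.5 and 51.4 CPM against 42.2, 0, 0.0573 and 0, led by *Cd79b* with *Pax5* at 0. The 2 CD8 T cell markers summed to 13.3, 78.6, 26.5 and 30.8 CPM against 16.4, 0.558, 0.0573 and 0.283, led by *Cd8b1*. Both sums were at or near 0 in SD libraries 2 to 4 and present in SD library 1. The CD8 T cell sum was higher in HFHS libraries 2 to 4 than in every SD library, with HFHS library 1 in the SD range. The cell cycle sum had the same arrangement, and the part of these markers in it was not tested. The 6 dendritic cell markers summed to 3.92 CPM in HFHS library 2, 0.0507 in SD library 2 and 34.5 in SD library 3, led by *Siglech*, and were at 0 in the other libraries. The 6 erythroid markers summed to 5.31, 0, 13.5 and 1.16 CPM against 0.116, 0.0507, 36.9 and 9.46, led by *Hba-a1*, and the 4 plasma cell markers to 177, 159, 111 and 166 CPM against 245, 167, 163 and 222, led by *Xbp1*, a gene of the secretory pathway in many cells. The Y-linked *Eif2s3y* was at 278, 266, 277 and 170 CPM on HFHS diet and 280, 210, 445 and 116 on SD, as male mice carry it. No list of markers separated the diets without overlap.

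To place the diet difference, it was compared with that in activated conventional T cells of the same tissue and strain, which lack CD25 and the Foxp3 reporter and were sorted by high CD44 and low CD62L (3 HFHS and 4 SD libraries, 7 pools in common). The interaction of diet and cell type passed for 7 of 11472 genes (0.061%) in edgeR's quasi-likelihood test with Benjamini-Hochberg adjustment, and all 7 had a larger HFHS over SD difference in Tregs. They included *Prc1*, *Ascc2* and *Ermard* (adjusted p = 0.0253 each) and *Idi1*, *Ubr7* and *Mns1* (0.0476 each). With the pool as a block, 0 genes passed, and the adjusted p was 1 for each of these 6. Their log2 fold changes stayed about as large, at 13.01 for *Prc1* (13.27 without the block), 13.41 for *Ascc2* (13.69), 12.57 for *Ermard* (12.87), 10.52 for *Idi1* (10.11), 11.47 for *Ubr7* (11.04) and 10.78 for *Mns1* (11.94). With SD Tregs at or near 0 such values are large in either fit and are no bounds, so their size with the block is no support. The lost calls do not show a smaller difference either. The median of the cell type interaction over all genes was 0.89 with the block, against 0.15 without it. DESeq2 called 688 genes, and edgeR 318 without SD library 1, 48 without SD library 4, 33 without SD library 3, 27 without SD library 2, 17 without HFHS library 1, 2 without HFHS library 4 and 1 without HFHS library 2.

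In the conventional T cells, these genes were present on both diets. On the scale of the joint fit, *Prc1* was at 27.1, 44.3 and 54.4 CPM in the HFHS libraries of conventional T cells and 111, 11.4, 23.6 and 25.1 in their SD libraries. *Ascc2* was at 16.9, 18.9 and 18.5 CPM on HFHS diet and 26.4, 16, 29.3 and 30.7 on SD. None of the conventional T cell libraries lacked *Prc1* or *Ascc2*, including those from the pools of SD libraries 2 to 4, whereas the Tregs of the SD pools were at 0. *Mns1*, a gene of flagellar assembly, was at 36.4, 51.8 and 45.2 CPM against 47.5, 43.1, 40.2 and 67.3 in conventional T cells, and in Tregs at 25.3, 5.39, 49.5 and 6.78 CPM against 0 in all SD libraries.

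The cell cycle list had a median log2 fold change of −0.01 over 88 members tested in the conventional T cells, with 44 positive (0.00 over all genes tested there). The median of the cell type interaction was 3.26 over 95 members (0.15 over all genes tested). It was 1.33 over 42 S phase members and 10.25 over 53 members of the G2 and M phases. Fitted values of members at or near 0 in SD Tregs bound nothing. For hypothalamic Tregs of C57Bl/6J mice (4 libraries on each diet, 5 pools in common), the cell cycle median was 0.26 over 22 members (−0.10 over all genes tested). The median of the tissue interaction was 0.79 over 77 members, close to the 0.58 over all genes tested. The interaction of diet and tissue passed for 0 of 9612 genes (0%) in edgeR, with 1203 at an unadjusted p under 0.05, 1120 by DESeq2 and 19 by edgeR with the pool as a block. In that blocked fit the median over all genes was 4.45, against 0.58 without the block, and the part of this shift in the 19 calls was not tested. For rest brain Tregs of female Balb/c mice (4 HFHS and 2 SD libraries) the cell cycle median was 0.30 over 76 members (0.10 over all genes tested), and that of the strain interaction 1.29 over 96 members (−0.04). The interaction of diet and strain passed for 0 of 11711 genes (0%) in edgeR, with 661 at an unadjusted p under 0.05 and 576 by DESeq2, and for 31 without SD library 1, 3 without SD library 3 and 2 without SD library 4. Strain and sex cannot be told apart in that comparison. In edgeR alone, the diet called 0 genes in each of these populations, with 470 of 10958, 63 of 5050 and 551 of 10672 genes at an unadjusted p under 0.05 in conventional T cells, hypothalamic Tregs and Balb/c Tregs.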

How the data were processed

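RNA from sorted T cells was sequenced as bulk libraries. The authors quantified reads with Salmon in nf-core/rnaseq 3.16 against mm10, and the deposited values are estimated counts, not normalized between libraries, and TPM, which the authors' run scaled by length and total. Counts of 35034 transcript names (98.9% matched to a gene) were summed to 24546 features and rounded. Genes above 10 counts in 4 or more of the 8 libraries were fitted with edgeR 4.0.16 (TMM, quasi-likelihood, R 4.3.3) and adjusted by Benjamini-Hochberg. DESeq2 1.42.0 and limma 3.58.1 were alternatives, and the fits were tested on simulated data. Tables used Python 3.11.15, numpy 2.4.6, pandas 2.3.3 and scipy 1.17.1, figures matplotlib 3.10.9.

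Genes named are *Foxp3*, *Il2ra*, *Ikzf2*, *Ctla4* and *Cd4*, genes called, the 10 largest non-overlapping differences per direction at a mean of at least 20 CPM (named genes, neither ribosomal nor mitochondrial), and per list the non-overlapping members or else the most abundant and the one of smallest p. Some genes that meet this rule are not reported here. Members and lists were chosen with earlier results of these data known. Pools pair cell types and tissues, since the same mice gave both. Deviations of the paired libraries correlated at −0.0288 to 0.0421. The pilot experiment and hypothalamic conventional T cells were not used here.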

Additional observations from a re-analysis of the deposited data

Results flagged for a closer look

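In groups of 4 libraries, a value was singled out when its gap to the nearest of the others made up nearly the whole range of the group (Dixon's criterion). This applied to 27 of 178 groups of values (15.2%), and chance alone marks about 1 in 20. Many of them are genes at 0 in 3 libraries, where any count in the remaining library stands apart.

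In SD library 1, *Cdc20* was at 14.1 CPM, *Slc16a3* at 2.38, *Snap25* at 1.16, *Aldoc* at 15.6, *Cd79b* at 42.2 and *Cd8b1* at 16.4 CPM, with the other SD libraries at or near 0, and *Rmdn3* and *Ubr7* were at 0.0581 CPM against 0. The summed B cell markers (42.2 CPM) and CD8 T cell markers (16.4 CPM) of that library stood apart through *Cd79b* and *Cd8b1*. In SD library 3, *Cd4* was at 238 CPM against 109 to 113 in the others, *Klra8* at 0.115 and *Siglech* at 34.5, the latter also as the sum of the dendritic cell markers (34.5). In SD library 4, *Dhrs4* and *Tnpo1* were at 0.0809 CPM, *Cep85* at 0.404 and *Mtor* at 0.728.

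In HFHS library 1, the cell cycle genes summed to 4955 CPM against 12017 to 13656 in the other HFHS libraries, *Leprotl1* was at 621 CPM against 363 to 388, and *Aldoc* and the sum of the astrocyte markers were at 0. HFHS library 2 had 3.92 CPM of dendritic cell markers against 0, and HFHS library 3 had *Id2* at 247 CPM against 466 to 508. HFHS library 4 had *Cep85* at 27.8 CPM against 67.8 to 76.5, *Alkbh4* at 0 against 22 to 30.1, and *Eif2s3y* at 170 against 266 to 278.

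The diet difference also differed between Tregs and conventional T cells by the interaction term of edgeR. The interaction log2 fold change was 13.27 for *Prc1*, 13.69 for *Ascc2* and 12.87 for *Ermard* (adjusted p = 0.0253 each), and 10.11 for *Idi1*, 11.04 for *Ubr7* and 11.94 for *Mns1* (0.0476 each). With the pool as a block, the adjusted p was 1 for each of them, while the log2 fold changes stayed about as large, at 13.01, 13.41 and 12.57 for *Prc1*, *Ascc2* and *Ermard* and 10.52, 11.47 and 10.78 for *Idi1*, *Ubr7* and *Mns1*. Such fitted values depend on the prior count and bound nothing, so their size with the block is no support.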

How the results depend on the processing

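Leaving out SD libraries 2 to 4, adding the number of genes detected as a covariate and keeping genes of at least 100 CPM were chosen after seeing the data. The cause of each shift below was not tested, beyond the smaller number of libraries or genes that an alternative uses. Relative to 0.07, the median of all genes was 0.70 with limma-voom and −0.04 with the covariate. For diet, edgeR called 0 genes with the other scaling and filter alternatives, DESeq2 88, and edgeR with 1 library left out 0 to 3. Genes higher without overlap numbered 422 to 938 with 1 library left out, 1621 without SD libraries 2 to 4 and 46 at 100 CPM or more, and genes lower 138 to 260, 1583 and 39. The cell cycle median was 1.01 to 3.30 with 1 library left out (over 52 to 81 members that then passed the filter, against 51), 3.98 over all 97 genes with no filter, 2.65 with limma-voom and 0.17 at 100 CPM or more, where the fit used only those genes. The median of the suppressive molecules turned to −0.11 with the covariate and was 0.03 to 0.53 with 1 library left out. The *Foxp3* difference was 0.01 in TPM and −0.29 to 0.02 with 1 library left out.

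With the pool as replicate block, the interaction calls were 0 for cell type and 19 for tissue, and the strain comparison shares no pool. The median of all genes was then 0.89 for cell type and 4.45 for tissue, against 0.15 and 0.58 without the block. No paired analysis was possible for the diet itself because no pool holds both diets. DESeq2 gave 688, 1120 and 576 calls for cell type, tissue and strain, and leaving out 1 library 1 to 318, 0 to 1 and 0 to 31.

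Of 1050 alternative values for 64 named genes, 1012 kept their direction and their side of the threshold, 15 passed it with DESeq2 and 23 (of 12 genes) turned their sign. Without SD libraries 2 to 4, log2 fold changes were 0.19 for *Ikzf2*, 0.05 for *Ctla4*, −0.03 for *Gapdh*, −0.46 for *Leprotl1* and −0.39 for *Cd79b*. With the covariate they were 0.61 for *Ikzf2*, 0.15 for *Btg1*, 0.04 for *Fos*, −0.36 for *Hspa8*, −0.16 for *Gapdh*, −0.26 for *Leprotl1*, −0.37 for *Cd79b*, 4.60 for *Hba-a1* and 0.22 for *Eif2s3y*. With limma-voom it was 0.12 for *Eif2s3y*. With 1 library left out they ranged from −0.52 to 0.19 for *Ikzf2*, −0.39 to 0.27 for *Cxcr3*, −0.02 to 0.56 for *Leprotl1*, −4.87 to 0.33 for *Hba-a1*, −0.86 to 1.30 for *Ly6c1* and −0.37 to 0.29 for *Eif2s3y*. Differences of genes at a few counts are not detectable at this depth.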
